A study of Mus musculus with 4 samples.

Results

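The oxidative phosphorylation genes were followed in T cells that had been sorted from 2 borders of the mouse brain, the meninges and the choroid plexus, at 2 ages. Members were taken by symbol, as every gene beginning with Nduf, Sdha, Sdhb, Sdhc, Sdhd, Uqcr, Cox4, Cox5, Cox6, Cox7, Cox8, Atp5 or mt-, which gave 110 of the 31053 genes counted. Of these, 97 are nuclear and 13 are encoded in the mitochondrial genome. The rule used names and no measured value. T cells of 4 groups were sequenced with the 10x Genomics 5′ kit, in 1 library each. These were meninges and choroid plexus of young mice, and meninges and choroid plexus of aged mice, and sets of 4 values below keep this order. The mice were female C57BL/6 mice, for which the labels name no altered allele and no agent, 10 weeks old when young and 18 months old when aged, and the study pooled 5 mice per library. With 1 library per condition, no p-value was taken, and age or tissue cannot be told apart from the library.

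Oxidative phosphorylation runs on 5 protein complexes of the inner mitochondrial membrane. Complex I (NADH dehydrogenase) and complex II (succinate dehydrogenase) pass electrons to ubiquinone, complex III (the cytochrome bc1 complex) passes them to cytochrome c, and complex IV (cytochrome c oxidase) passes them to oxygen. The protons pumped by complexes I, III and IV drive complex V, the ATP synthase. Complexes I, III, IV and V are built from subunits of both genomes, while all subunits of complex II are nuclear. In lymphocytes, resting naïve and memory cells rely on this pathway, and activated cells enlarge it together with glycolysis.

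Among the nuclear members, 36 are complex I subunits and 8 are complex I assembly factors (Ndufaf genes). Complex II gave 4 subunits and 4 assembly factors, the latter because Sdhaf symbols begin with Sdha. Complex III gave 8 members, complex IV 20 (Ndufa4 and Ndufa4l2 are counted there) and complex V 17. The 13 mitochondrial genes make 7 subunits of complex I, 1 of complex III, 3 of complex IV and 2 of complex V. Atp5o is listed under 2 identifiers, and ENSMUSG00000116933 had no UMI (unique molecular identifier, which marks 1 captured RNA molecule).

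The sequences below belong to the genes that the age comparison turned on. Ndufb7 and Uqcr11 were among the highest nuclear members in aged over young, and Cox7a2l and Ndufs6 were the members below 0 in all 6 age contrasts. Each run is a RefSeq promoter of GRCm38.p6, with 250 bases before and 50 after the start listed first there for the gene. That start can differ from the gene start in the GENCODE vM21 annotation, and the Cox7a2l run lies inside its GENCODE gene span. The capitals mark any of 3 motifs of factors known for nuclear mitochondrial genes. The motifs were the NRF1 palindrome, the ETS motif CCGGAAGT bound by GABPA, and the YY1 motif AAGATGGC, searched on both strands. No motif lies inside another.
Ndufb7, chr8:83566508-83566807, plus strand: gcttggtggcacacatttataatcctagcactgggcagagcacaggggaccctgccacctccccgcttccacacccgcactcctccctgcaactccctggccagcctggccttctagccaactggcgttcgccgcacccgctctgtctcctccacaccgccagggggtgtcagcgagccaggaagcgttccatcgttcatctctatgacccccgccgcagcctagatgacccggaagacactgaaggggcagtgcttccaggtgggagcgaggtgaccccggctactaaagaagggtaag
Uqcr11, chr10:80406772-80407071, minus strand: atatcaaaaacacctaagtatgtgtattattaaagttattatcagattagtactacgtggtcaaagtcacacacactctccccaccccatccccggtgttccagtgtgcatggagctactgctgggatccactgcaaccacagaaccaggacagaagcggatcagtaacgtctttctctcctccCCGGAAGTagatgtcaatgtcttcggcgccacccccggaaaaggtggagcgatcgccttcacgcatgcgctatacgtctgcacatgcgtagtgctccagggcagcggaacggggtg
Cox7a2l, chr17:83514284-83514583, minus strand: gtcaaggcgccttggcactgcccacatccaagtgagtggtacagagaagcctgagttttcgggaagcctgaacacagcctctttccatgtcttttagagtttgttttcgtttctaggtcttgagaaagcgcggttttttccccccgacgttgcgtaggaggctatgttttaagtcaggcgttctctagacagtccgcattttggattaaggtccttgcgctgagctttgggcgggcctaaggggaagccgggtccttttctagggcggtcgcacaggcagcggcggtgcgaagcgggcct
Ndufs6, chr13:73328433-73328732, minus strand: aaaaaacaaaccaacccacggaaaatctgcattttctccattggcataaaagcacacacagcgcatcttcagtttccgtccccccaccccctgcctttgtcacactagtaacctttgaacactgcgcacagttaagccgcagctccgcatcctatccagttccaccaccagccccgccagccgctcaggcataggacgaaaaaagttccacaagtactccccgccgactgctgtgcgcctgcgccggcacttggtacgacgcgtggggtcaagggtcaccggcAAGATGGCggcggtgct
The Uqcr11 promoter held the ETS motif and the Ndufs6 promoter the YY1 motif, and the letters of none of the 3 motifs stood in the other two. RefSeq promoters were at hand for 79 of the 97 nuclear members. At least 1 motif stood in 21 of the 79 (26.6%), against 7.57% of all 27025 promoters. By motif, NRF1 stood in 7 (8.86% against 0.977%), ETS in 5 (6.33% against 4%) and YY1 in 9 (11.4% against 2.88%). A match is a string of letters, and binding was not measured. Among members measured in all 6 age contrasts, the median of the mean log2 ratio was 0.26 in the 9 with the YY1 motif and 0.20 in the 60 without it, and 0.18 in the 6 with the NRF1 motif against 0.22 in the 63 without. With the ETS motif it was 0.19 in 5 members, against 0.21 in the 64 without.

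The mitochondrial gene that stood apart was mt-Nd3, a core subunit of complex I that lies on the heavy-strand transcript. It is annotated at chrM:9459-9806 of GRCm38, plus strand, as a single coding exon. Its first 150 of 348 transcript bases (chrM:9459-9608), the end from which the 5′ kit reads, are given with the first codon in capitals.
mt-Nd3: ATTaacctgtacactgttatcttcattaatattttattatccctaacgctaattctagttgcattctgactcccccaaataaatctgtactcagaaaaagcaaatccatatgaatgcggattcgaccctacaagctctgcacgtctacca

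The libraries held 1111, 718, 1695 and 1277 cell barcodes. Limits of 200 to 7000 genes and at most 5% of UMIs from mt- genes, removal of the cells marked as doublets (16, 22, 0 and 5) and a UMI of Cd3d, Cd3e or Cd3g left 1007, 605, 1408 and 1094 T cells, with medians of 3198, 2978, 2312.5 and 2838.5 UMIs. Cells in which Cd4 but neither Cd8a nor Cd8b1 was seen were called CD4 (254, 160, 362 and 230 cells), the converse CD8 (254, 160, 281 and 473), and cells with none of these UMIs were called neither (481, 269, 735 and 358). The neither cells are T cells in which no coreceptor UMI was captured, a gate and not a type of their own. According to the paper, flow cytometry had selected T cells bearing CD4 or CD8 before sequencing. By that design a neither cell would bear a coreceptor whose UMI was missed. The counts alone cannot tell such a cell from one without a coreceptor, and the purity of the sort was not tested. Of the cells in the neither gate, 18, 8, 24 and 15 had gamma-delta constant-region UMIs. The 4 libraries had 3, 3, 7 and 3 barcodes that also occurred in another library. Summed markers of other cells stayed low beside the T cell markers, which came to 3954 to 4901 CPM (UMIs per 1000000 UMIs of the group). The highest sums in any gate were 263 CPM for B cells, 197 for macrophages, 1.15 for fibroblasts, 74.5 for endothelium and 483 for erythroid genes. Gamma-delta T cell and natural killer cell genes reached 181 and 130 CPM. They had a UMI in 1.25% to 32.8% and in 0% to 30.2% of the cells of a group. A B cell marker UMI was seen in 14.6% to 51.2% of the cells of a group, and an erythroid one in up to 23.5%. The erythroid genes came to 452 and 466 CPM in the CD8 and neither cells of the aged meninges and to 483 CPM in the neither cells of the young meninges, and their part in the results was not tested. Ttr, a marker of choroid plexus epithelium, was at 162 CPM in the CD8 cells of the young choroid plexus and at 0 to 4.03 CPM elsewhere. A single cell there had 3 or more Ttr UMIs, and the main ratios of the nuclear sum are also given without it. All other values of that group, such as splits by cell state, member counts, gene levels and length classes, keep this cell.

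UMIs were summed over the cells of each gate and library. The nuclear members together came to 20359 CPM in CD4, 19935 in CD8 and 19615 in neither cells of the young meninges. In the aged meninges they came to 23268, 22813 and 22449 CPM. In the young choroid plexus they came to 21146, 23175 and 21472 CPM, and in the aged choroid plexus to 24762, 25409 and 25549 CPM. Each aged group was thus above the young group of the same gate and tissue.

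**Figure D1:**
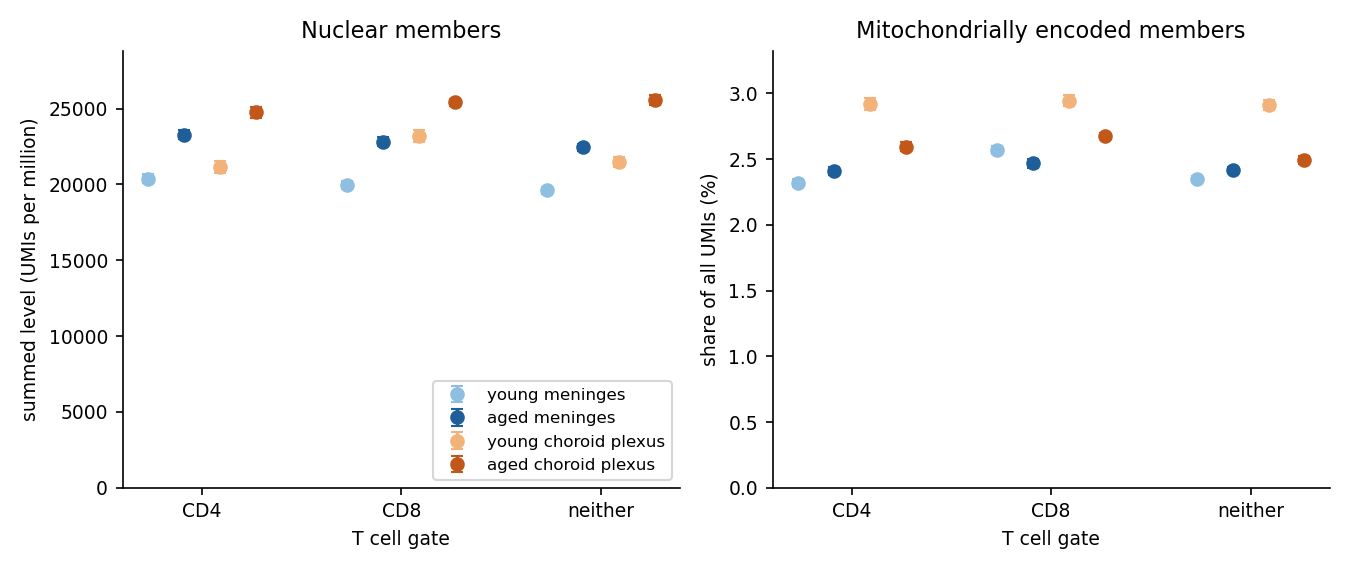
Summed level of the nuclear members (left, CPM) and share of all UMIs from the mitochondrially encoded members (right, percent), by T cell gate, with 95% exact intervals that cover counting error only. Every aged nuclear sum lies above its young counterpart (20359 to 23268 in CD4 cells of the meninges), while the mitochondrial share of the young choroid plexus, 2.91% to 2.94%, is the highest of the 4 libraries in each gate.

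The log2 ratio of the nuclear sum, aged over young, was 0.19 in CD4 cells of the meninges (95% exact interval 0.16 to 0.22, counting error only) and 0.23 in those of the choroid plexus (0.19 to 0.26). In CD8 cells it was 0.19 (0.17 to 0.22) and 0.13 (0.11 to 0.16), and in neither cells 0.19 (0.17 to 0.22) and 0.25 (0.22 to 0.28). Without the Ttr cell, the CD8 value of the choroid plexus was 0.15. Cytosolic ribosomal protein genes were taken by symbol, as Rpl or Rps followed by a digit or the letter a. This rule leaves out the Rplp genes and takes in some kinase genes with Rps symbols. By this rule they took 32.3% to 37.8% of UMIs in the young groups and 27.5% to 33.1% in the aged ones. Scaled to the UMIs outside those genes, the 6 ratios stayed above 0 but fell to between 0.05 and 0.15.

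Of the 97 nuclear members, 80 had at least 40 UMIs in both groups together in all 6 age contrasts, 4 in some of them (Ndufs1, Ndufaf2, Ndufaf5 and Ndufaf7) and 13 in none. The 13 include Cox6a2 and Cox7a1, the forms known from heart and skeletal muscle, with 1 and 10 UMIs in all, and 6 entries with no UMI, among them Cox4i2, Cox8b and Cox8c. The median log2 ratio of the members with enough UMIs, after adding 10 CPM to both levels, was 0.22, 0.24, 0.16, 0.15, 0.19 and 0.24 in the order CD4 meninges, CD4 choroid plexus, CD8 meninges, CD8 choroid plexus, neither meninges and neither choroid plexus. The medians over all genes were 0.06, 0.11, 0.05, 0.10, 0.04 and 0.11. The members' median was thus above that of all genes in each contrast, but most members have short coding sequences, and other protein-coding genes of like length, ribosomal protein genes set aside, were closer to them. In the class of 300 to under 600 coding bases, with 43 or 44 members, the members' medians were 0.21, 0.24, 0.22, 0.14, 0.21 and 0.24 in the same order, against 0.16, 0.19, 0.12, 0.12, 0.15 and 0.18 for other genes. Under 300 bases, with 18 members, they were 0.29, 0.26, 0.33, 0.10, 0.32 and 0.29 against 0.25, 0.30, 0.24, 0.13, 0.25 and 0.24, so that the members were the lower in CD4 and CD8 cells of the choroid plexus. From 600 to under 1200 bases they were below other genes in 4 contrasts, and from 1200 bases on they were below them in the 3 contrasts of the meninges.

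Members past a log2 ratio of 0.5 in the higher direction numbered 7 of 83, 8 of 80, 7 of 81, 2 of 82, 5 of 84 and 10 of 82 in that order of contrasts. The share of all genes past it was 14.4, 18.3, 13, 13.7, 11.8 and 14.4%, so fewer members than genes in general passed this size. In the lower direction only Ndufa10 passed it, in neither cells of the meninges, where 7.06% of all genes did, while 0 members did in the other contrasts, where 7.81, 7.99, 7.52, 5.42 and 6.48% of all genes did. Over the 6 contrasts 24 of the 84 members with enough UMIs in any passed it upward at least once (28.6%), 1 downward (1.19%) and 59 never (70.2%), where 32.1, 17.4 and 52.6% of 6995 genes did. Of the 80 members measured in all 6, 37 (46.2%) were above 0 in every contrast and 2 (2.5%) below 0 in every one. Over the 3678 genes measured in all 6, 783 (21.3%) were above 0 throughout and 363 (9.87%) below. These shares, unlike the medians above, were not set against genes of like coding length. The 6 contrasts share libraries, 2 per tissue, and are not 6 independent looks at age.

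**Figure D2:**
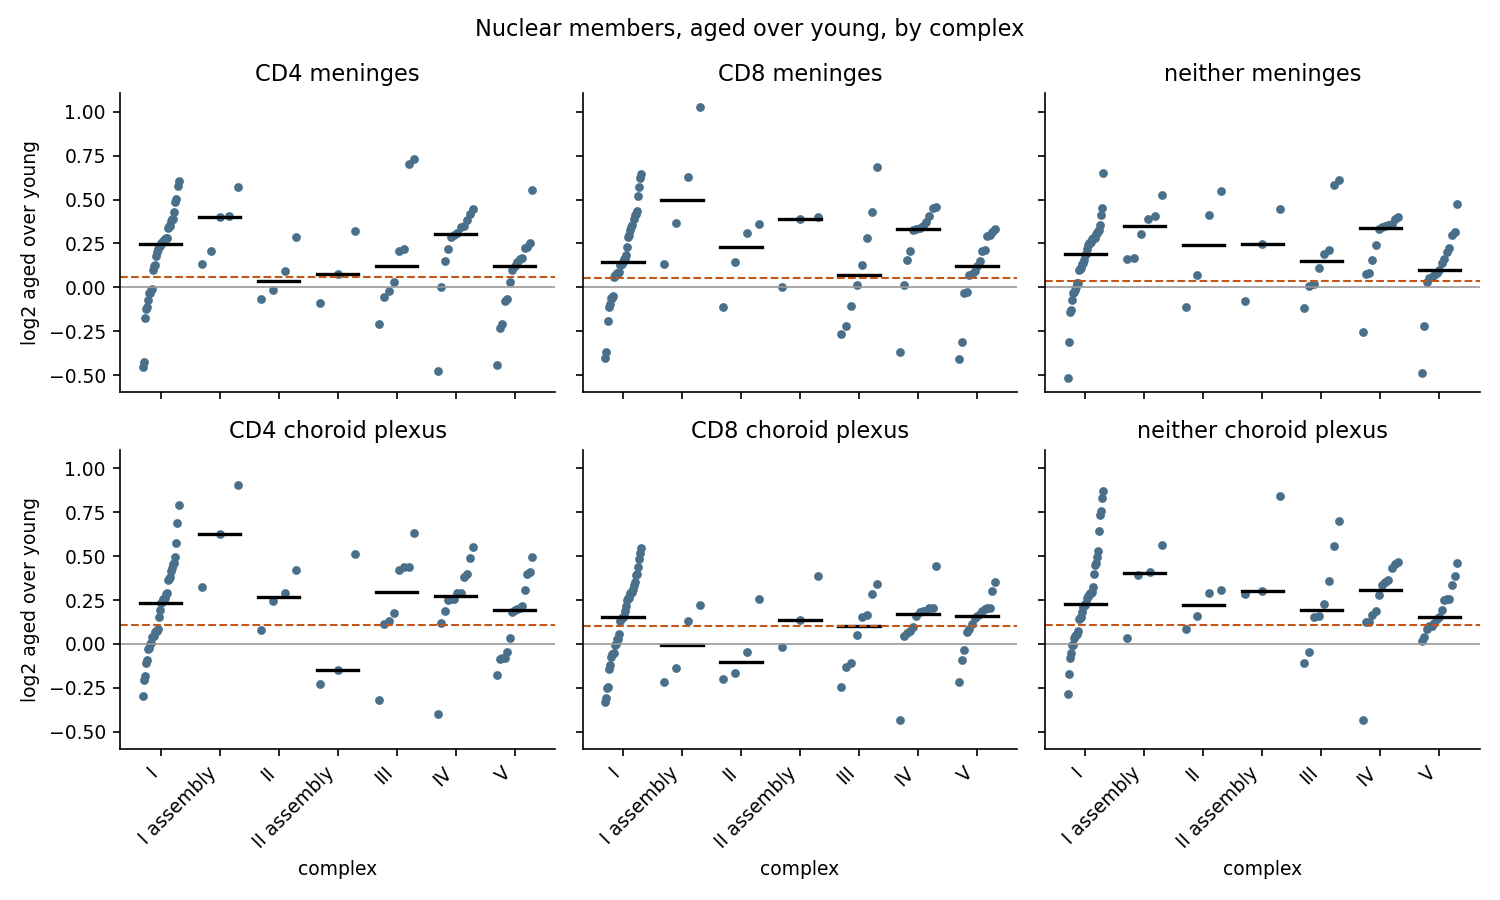
Log2 ratio of each nuclear member with at least 40 UMIs, aged over young, in 6 contrasts and by complex. Points are genes, black bars medians, and the dashed line is the median of all genes (0.04 to 0.11). In complex IV, 11 of 12 members lie above 0 in each panel, beside 54.4% to 61.4% of all genes, and the point below is Cox7a2l. Of other genes in the length classes under 600 coding bases, 64.6% to 79.1% lie above 0.

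Complex I subunits summed to log2 ratios of 0.17 to 0.27 over the 6 contrasts, and 25 to 30 of the 35 or 36 measured subunits were above 0. Over all genes, 54.4% to 61.4% were above 0 in these contrasts. Of other protein-coding genes, ribosomal protein genes set aside, 67.2% to 79.1% were above 0 under 300 coding bases. From 300 to under 600 bases, 64.6% to 72.1% were. The lowest count, 25 of 36 in CD8 cells of the choroid plexus, stands beside 61.4% of all genes. Other genes in these length classes were above 0 there in 67.2% and 64.8%. Ndufb7, an accessory subunit of the membrane arm at chr8:83566671-83571626, was past the fold in 5 of 6 contrasts and had the highest mean ratio of all members, 0.62. In CD4 cells Ndufb7 was at 151 CPM in the young and 218 CPM in the aged meninges, and at 139 and 248 CPM in the choroid plexus. In CD8 cells it was at 135 and 218 CPM in the meninges, with 184 and 239 CPM in the choroid plexus. In neither cells it was at 130 and 210 CPM in the meninges, with 149 and 259 CPM in the choroid plexus. All 6 aged values of Ndufb7 lay above all 6 young values, but gates of a library are not independent samples. Ndufb7 was named for its age ratios, and the share of all genes separated in this way was not counted.

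A few complex I subunits went the other way. Ndufa10, an accessory subunit of the kinase-like family at chr1:92439010-92473860, had log2 ratios of -0.45, -0.37 and -0.52 in CD4, CD8 and neither cells of the meninges. In the choroid plexus its ratios were 0.04, -0.24 and -0.00, and the difference between the tissues was not tested. Ndufs6, a subunit of the electron-input arm that binds zinc, was below 0 in all 6 contrasts, from -0.07 to -0.40. Ndufs6 was at 93.7 to 99.3 CPM in the young and 68.5 to 91.8 CPM in the aged meninges, and at 117 to 137 and 104 to 109 CPM in the choroid plexus.

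Complex I assembly factors were measured from few UMIs and had the largest summed ratio of the nuclear classes in 4 of the 6 contrasts. Their summed log2 ratio was 0.43 in CD4 cells of the meninges (0.16 to 0.71), 0.74 in CD4 cells of the choroid plexus (0.40 to 1.09) and 0.54 in CD8 cells of the meninges (0.28 to 0.81). In neither cells it was 0.45 in the meninges, against 0.44 in the choroid plexus, and in CD8 cells of the choroid plexus 0.05 (-0.21 to 0.31). Complex II assembly factors were higher than these in the choroid plexus, at 0.50 in neither and 0.24 in CD8 cells, the latter with an interval of -0.11 to 0.60. The complex I assembly factors came to 202 to 346 CPM in all. Ndufaf3 was at 19.9 CPM (21 UMIs) in young and 50.8 CPM (46 UMIs) in aged CD8 cells of the meninges. Its log2 ratio of 1.03 was the only one past 1 among the nuclear members. Ndufaf8, the next highest by mean ratio (0.45), was at 68.4 to 106 CPM in the young and 95.8 to 116 CPM in the aged groups.

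Complex II is the succinate dehydrogenase shared with the citric acid cycle. Its summed ratio was 0.05 and 0.25 in meningeal and choroid plexus CD4 cells, 0.21 and -0.00 in CD8 cells, and 0.17 and 0.27 in neither cells. The interval spanned 0 in the 4 CD4 and CD8 contrasts and lay above 0 in the 2 neither contrasts. Sdha, the flavoprotein that oxidises succinate, had ratios of -0.16 to 0.29 and was above 0 in 2 of 6 contrasts. Sdhb, the iron-sulfur subunit, had ratios of 0.07 to 0.31, all above 0. The membrane anchors Sdhc and Sdhd ranged from -0.05 to 0.41 and from -0.20 to 0.55.

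Complex III gave the other members past the fold in at least 4 of 6 contrasts, Uqcrb and Uqcr11, both small subunits without a redox centre. Uqcrb (chr13:66900617-66905378) was at 162 to 184 CPM in the young and 266 to 292 CPM in the aged meninges, and at 205 to 227 and 290 to 306 CPM in the choroid plexus. Uqcr11 (chr10:80402997-80406830) was at 137 to 143 and 196 to 239 CPM in the meninges, with 171 to 244 and 270 to 286 CPM in the choroid plexus. For both genes the young and aged ranges did not overlap within a tissue. Both were named for their age ratios, and the share of all genes with such ranges was not counted. In CD8 cells of the choroid plexus the ratios were smaller, 0.34 for Uqcrb and 0.15 for Uqcr11. Uqcrfs1, the Rieske iron-sulfur protein that carries electrons in the same complex, had ratios of -0.32 to 0.01. The complex as a whole was at 0.08 to 0.26 in 5 contrasts and at -0.01 in CD8 cells of the choroid plexus.

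In complex IV, 11 of the 12 measured members were above 0 in each contrast, where 54.4% to 61.4% of all genes were. Of other genes under 300 coding bases 67.2% to 79.1% were above 0, and 64.6% to 72.1% from 300 to under 600. The summed ratio was 0.16 in CD8 cells of the choroid plexus and 0.28 to 0.29 elsewhere. Cox6b1, a subunit that bridges the dimer, was at 410 to 417 CPM in the young and 527 to 575 CPM in the aged meninges, and at 434 to 501 and 569 to 615 CPM in the choroid plexus. Cox7a2 and Ndufa4 were likewise above 0 throughout, with ratios of 0.25 to 0.45 and 0.21 to 0.47. Cox4i1, the widely expressed form of subunit 4, had ratios of 0.01 to 0.15. The member below 0 was Cox7a2l (chr17:83501918-83517330), also known as Scaf1, a factor linked to supercomplexes of complexes III and IV. Its protein form in these mice and the supercomplexes themselves were not measured. Cox7a2l was at 140 to 141 CPM in the young and 97.8 to 116 CPM in the aged meninges, and at 134 to 153 and 96.8 to 114 CPM in the choroid plexus. All 6 aged values of Cox7a2l lay below all 6 young values, and its log2 ratios of -0.25 to -0.48 did not reach the fold in any contrast. It has the lowest mean age ratio of the members, and the share of all genes separated in this way was not counted.

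Complex V summed to 0.10 to 0.20. Its alpha and beta subunits form the catalytic head, and neither Atp5a1 nor Atp5b passed the fold in any age contrast. Atp5a1, the alpha subunit, had log2 ratios of -0.44, -0.41 and -0.49 in CD4, CD8 and neither cells of the meninges and of -0.17, -0.03 and 0.04 in the choroid plexus. Atp5b, the beta subunit that makes ATP, had ratios of -0.23, -0.31 and -0.22 in the meninges, against -0.08, 0.17 and 0.14 in the choroid plexus. The ring subunit c comes from 3 genes with the same mature protein. Of their UMIs, Atp5g2 gave 48.8% to 55.2%, Atp5g3 29.8% to 34.3% and Atp5g1 14.1% to 18.2% over the 12 groups, so that Atp5g2 led in every group.

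Further mitochondrial gene lists were chosen by function, and their counts past the fold stand beside 11.8 to 18.3% of all genes upward and 5.42 to 7.99% downward. The citric acid cycle list (13 genes, 10 to 13 with enough UMIs) had medians of -0.11 to 0.11 over the 6 contrasts, with at most 1 gene higher and 2 lower past the fold in any of them. The mitochondrial ribosome (78 genes, 63 to 76 with enough UMIs) had medians of 0.03 to 0.18, with 4 to 11 genes higher and 0 to 3 lower. Carriers and assembly factors outside the naming rule (35 genes, 14 to 27 with enough UMIs) had medians of 0.06 to 0.27, with 2 or 3 genes higher and at most 1 lower. In this list Atpif1, the inhibitor of the ATP synthase, had a mean ratio of 0.64, Surf1, a complex IV assembly factor, 0.54, and Uqcc2, a complex III assembly factor, 0.46. Atpif1 was at -0.01 in CD8 cells of the meninges and at 0.55 to 1.05 in the other contrasts. The carriers and channels (6 genes, all with enough UMIs) had medians of -0.20 to 0.21. The ADP/ATP carriers Slc25a4 and Slc25a5 had means of 0.22 and -0.09, with mixed signs. Slc25a4 was at -0.19 and -0.38 in CD8 cells of meninges and choroid plexus and at 0.10 to 0.71 in the other contrasts. Slc25a5 ranged from -0.43 to 0.26. Mitochondrial transcription and replication (17 genes) and the nuclear regulators (9 genes) had 2 to 9 and 2 to 6 genes with enough UMIs, at medians of -0.02 to 0.28 and -0.25 to 0.42.

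Cell state differed between the ages in the same libraries. Ccr7, the chemokine receptor of naïve and central memory T cells, had a UMI in 47.5% to 64.6% of the cells of each young gate. In the aged gates the share was 8.90% to 11.3%. In all 12 groups the nuclear sum was higher in cells without a Ccr7 UMI than in cells with one. The log2 ratio, without over with, was 0.20 to 0.46 in the 9 groups of the young libraries and the aged meninges. In the aged choroid plexus it was 0.07 in CD4, 0.12 in CD8 and 0.01 in neither cells, the last with an interval of -0.04 to 0.07. Among cells without a Ccr7 UMI, aged over young was 0.07 and 0.09 in meningeal and choroid plexus CD4 cells, 0.05 and -0.06 in CD8 cells, and 0.06 and 0.14 in neither cells. These are smaller than over all cells in every contrast, and the sign turned in CD8 cells of the choroid plexus. In the same order the members' medians in these cells were 0.05, 0.05, 0.05, -0.06, 0.07 and 0.12. Over all genes they were -0.00, 0.07, 0.02, 0.05, -0.03 and 0.06. The members were thus the lower in CD4 and CD8 cells of the choroid plexus. The Ttr cell was kept in the Ccr7 split, and its part in the CD8 values of the choroid plexus was not tested. Among cells with a Ccr7 UMI, aged over young was 0.03, 0.09 and 0.14 in CD4, CD8 and neither cells of the meninges. In the choroid plexus it was 0.26, 0.28 and 0.34, and the 6 aged groups had 25 to 70 cells each. The split rests on a captured UMI, and cells with a Ccr7 UMI had the higher median depth in all 12 groups. The medians, with and without, were 4950 and 3015.5 UMIs in aged choroid plexus CD8 cells. In young meningeal CD4 cells they were 3219.5 and 3169, and the part of depth was not tested.

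**Figure D3:**
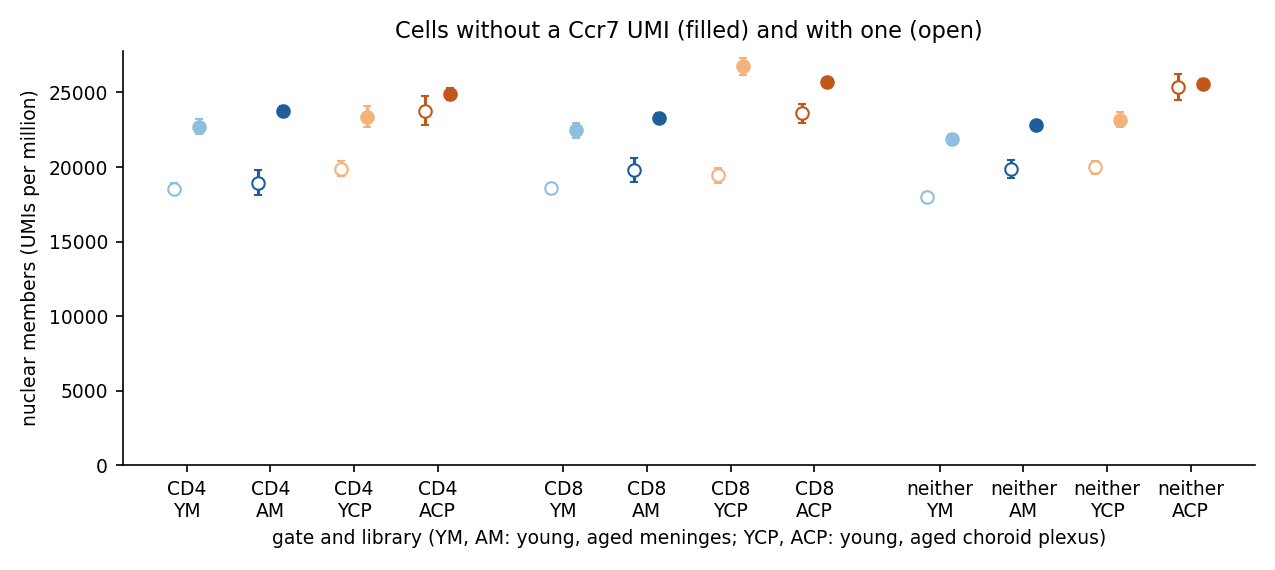
Summed level of the nuclear members (CPM, 95% exact intervals of the counts) in cells with a Ccr7 UMI (open) and without one (filled), by gate and library. Filled points lie above open ones in all 12 groups, from 18558 and 22709 in CD4 cells of the young meninges to 25362 and 25576 in neither cells of the aged choroid plexus.

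Cells with a UMI of Mki67, Top2a, Birc5, Ccnb2 or Cdk1, genes of dividing cells, had nuclear sums of 26881, 30584, 26325 and 30458 CPM in the 4 libraries, against 19334, 21010, 22356 and 24480 CPM in the other T cells. CD8 cells with a Gzmk UMI had 26685, 28230, 23826 and 26021 CPM, against 18589, 21977, 21380 and 24701 CPM in those without. Both differences were thus wider in the young libraries, and that contrast was not tested.

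Tissue made a difference of the same order as age. Choroid plexus over meninges, the nuclear sum had a log2 ratio of 0.05 (0.02 to 0.09) in young and 0.09 (0.06 to 0.12) in aged CD4 cells, 0.22 (0.19 to 0.25) and 0.16 (0.13 to 0.18) in CD8 cells, and 0.13 (0.10 to 0.16) and 0.19 (0.16 to 0.21) in neither cells. Without the Ttr cell the young CD8 value was 0.20. The members' medians were 0.05, 0.09, 0.25, 0.12, 0.12 and 0.19 in the order young and aged CD4, young and aged CD8, young and aged neither, against -0.07, -0.01, -0.01, 0.02, -0.06 and -0.00 for all genes. Past the fold upward were 0 of 81, 0 of 82, 10 of 81, 2 of 83, 1 of 82 and 2 of 84 members, where 5.49, 4.29, 6.9, 5.72, 3.56 and 2.89% of all genes were. Downward there were 2, 1, 5, 0, 4 and 0 members, where 12.6, 8.5, 9.31, 4.36, 10 and 5.96% of all genes were. Only the young CD8 cells had a share of members above the background, 12.3% upward, with the Ttr cell kept.

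Ndufc1, a small membrane subunit of complex I, had the highest mean tissue ratio, 0.52. Ndufc1 was at 91.8 CPM in the young meninges and 189 CPM in the young choroid plexus in CD8 cells, and at 136 and 189 CPM in the aged ones. Uqcr11 and Ndufs6 followed at means of 0.39 and 0.35. The lowest were Atp5b at -0.45, Ndufa9 at -0.40 and Atp5a1 at -0.29. Atp5b was at 307 CPM in the meninges, against 164 CPM in the choroid plexus in young CD8 cells, a log2 ratio of -0.86, and at 245 and 186 CPM in aged ones.

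The direction of a member went with the length of its coding sequence, in bases of the longest form in the GENCODE vM21 annotation. In the young CD8 cells the median tissue ratio was 0.38 for the 18 members under 300 bases, 0.27 for the 44 of 300 to under 600, -0.01 for the 11 of 600 to under 1200 and -0.41 for the 8 of 1200 and over. The same order of the shortest and longest classes held in all 6 tissue contrasts, with Spearman correlations across members of -0.34 to -0.64 (81 to 84 genes, given as a description, since the genes share libraries). Other protein-coding genes, ribosomal protein genes set aside, had correlations of -0.07 to 0.04 in these contrasts, and in the young CD8 cells their medians were 0.21, 0.06, -0.08 and -0.03 in the same 4 classes. For age, the members' correlations were -0.25 to -0.49 in 5 contrasts and 0.06 in CD8 cells of the choroid plexus, and those of other genes were -0.07 to -0.20. Length and function of the subunits were not separated here.

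**Figure D4:**
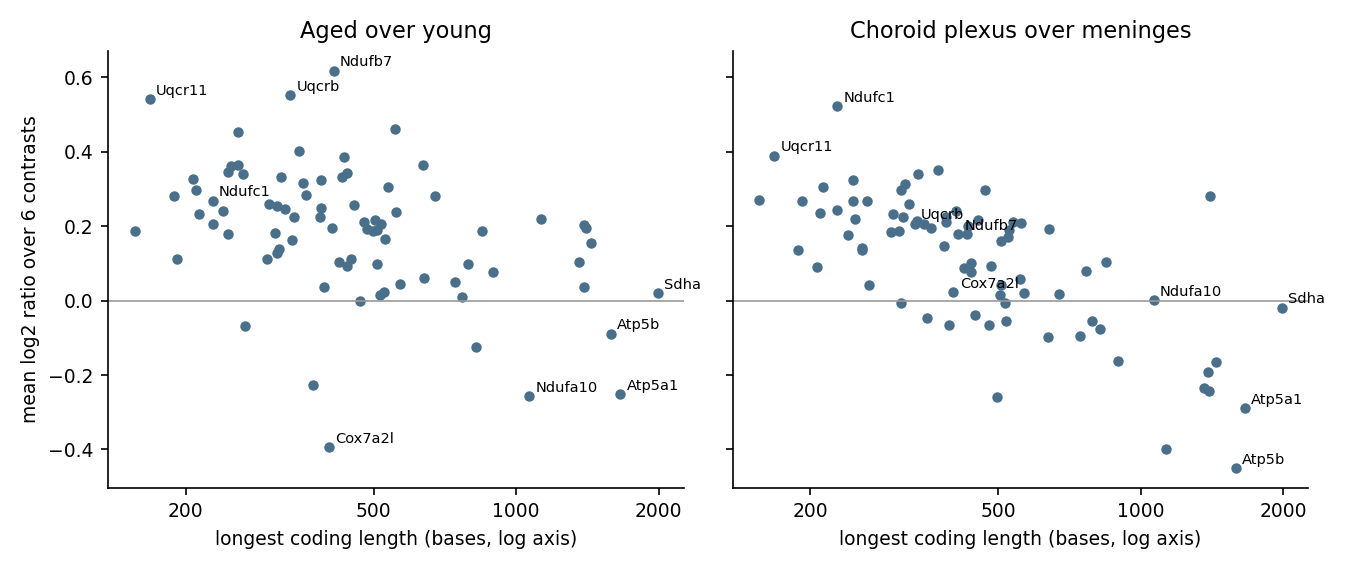
Mean log2 ratio over 6 contrasts of each nuclear member against its longest coding length (log axis), for aged over young and for choroid plexus over meninges. Short members sit mostly above 0; Ndufc1 (0.52) is the highest and Atp5b (-0.45) the lowest by tissue.

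CD8 and CD4 cells were compared within each library. CD8 over CD4, the nuclear sum had a log2 ratio of -0.03 in both meninges libraries (intervals of -0.06 to -0.00), 0.13 (0.10 to 0.17) in the young choroid plexus and 0.04 (0.01 to 0.06) in the aged choroid plexus. Without the Ttr cell the young choroid plexus value was 0.11. Scaled outside ribosomal protein genes, the 2 meninges ratios turned to 0.09 and 0.08. Cox8a, a small complex IV subunit, was higher in CD8 cells of every library, at 785 and 890 CPM in the young meninges, 747 and 1065 in the young choroid plexus, 962 and 1122 in the aged meninges and 988 and 1213 in the aged choroid plexus. Sdhaf1, an assembly factor that serves Sdhb, was lower in CD8 cells of every library, with log2 ratios of -0.35, -0.21, -0.67 and -0.74 in the same order of libraries. Ndufaf4 had the highest mean, 0.37, but was at -0.22 in the aged choroid plexus. These genes were named for their CD8 over CD4 ratios. How many of all genes kept a single direction in every library was not counted.

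The mitochondrially encoded genes have to be read with the cell filter in mind, since no cell above 5% of mt- UMIs was kept. In the young meninges they took 2.32, 2.57 and 2.35% of the UMIs of CD4, CD8 and neither cells, and in the aged meninges 2.41, 2.47 and 2.42%. In the young choroid plexus they took 2.92, 2.94 and 2.91%, and in the aged choroid plexus 2.60, 2.68 and 2.495%. The share was thus lower in the aged choroid plexus, by 0.32, 0.27 and 0.42 percentage points, and moved by 0.10 points or less in the meninges. Meningeal cells with a Ccr7 UMI were at 2.53, 2.66 and 2.51% when young and 2.91, 3.21 and 2.75% when aged. Meningeal cells without one were at 2.05, 2.40 and 2.11% when young and 2.35, 2.35 and 2.37% when aged.

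The filter removed 4.55, 9.84, 8.33 and 11.5% of the T cells of the 4 libraries. The removed cells had medians of 1222.5, 1395.5, 958 and 1303 UMIs, against 3198, 2978, 2312.5 and 2838.5 in the kept ones. In neither cells it removed 16.4% in the aged and 11.2% in the young choroid plexus. Without it, the neither cells of the choroid plexus were at 3.12% young and 3.26% aged, so that their difference turned from -0.42 to 0.14 points. CD4 and CD8 cells of the choroid plexus kept a lower aged share without the filter, by 0.20 and 0.26 points.

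A ratio of the 2 genomes does not depend on the scale. The UMIs of mt- genes over those of nuclear members were 1.14, 1.29 and 1.20 in CD4, CD8 and neither cells of the young meninges and 1.04, 1.08 and 1.08 in the aged meninges. In the choroid plexus they were 1.38, 1.27 and 1.36 when young and 1.048, 1.054 and 0.977 when aged. The aged ratio was the lower in all 6 pairs. Without the mt- filter it was still lower in all 6, at 1.17 young and 1.14 aged in CD4 cells of the meninges and 1.49 and 1.30 in neither cells of the choroid plexus. It also followed the Ccr7 split, at 1.36 to 1.67 in young cells with a Ccr7 UMI and 0.903 to 1.14 in young cells without one. Among cells without a Ccr7 UMI the aged meninges were at 0.990, 1.01 and 1.04 in CD4, CD8 and neither cells against 0.903, 1.07 and 0.965 in the young, so the ratio was not lower with age there in CD4 and neither cells. In the choroid plexus these cells were at 1.11, 0.995 and 1.14 when young and 1.04, 1.03 and 0.973 when aged, so that CD8 cells were not lower either.

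Within the mitochondrial genome, mt-Nd3 was the exception, as the only mt- gene past the fold in every age contrast. How many of all genes passed it in every contrast was not counted. In the young meninges mt-Nd3 was at 265, 374 and 273 CPM in CD4, CD8 and neither cells, and in the young choroid plexus at 354, 374 and 326 CPM. In the aged meninges mt-Nd3 was at 136, 173 and 149 CPM, and in the aged choroid plexus at 130, 141 and 121 CPM. Every aged group of mt-Nd3 lay below every young one. Gates of a library are not independent samples, and the share of all genes separated in this way was not counted. The log2 ratio without a pseudocount was -0.96, -1.11 and -0.87 in CD4, CD8 and neither cells of the meninges (intervals within -1.38 to -0.65), and -1.44, -1.41 and -1.43 in the choroid plexus (within -1.82 to -1.08).

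**Figure D5:**
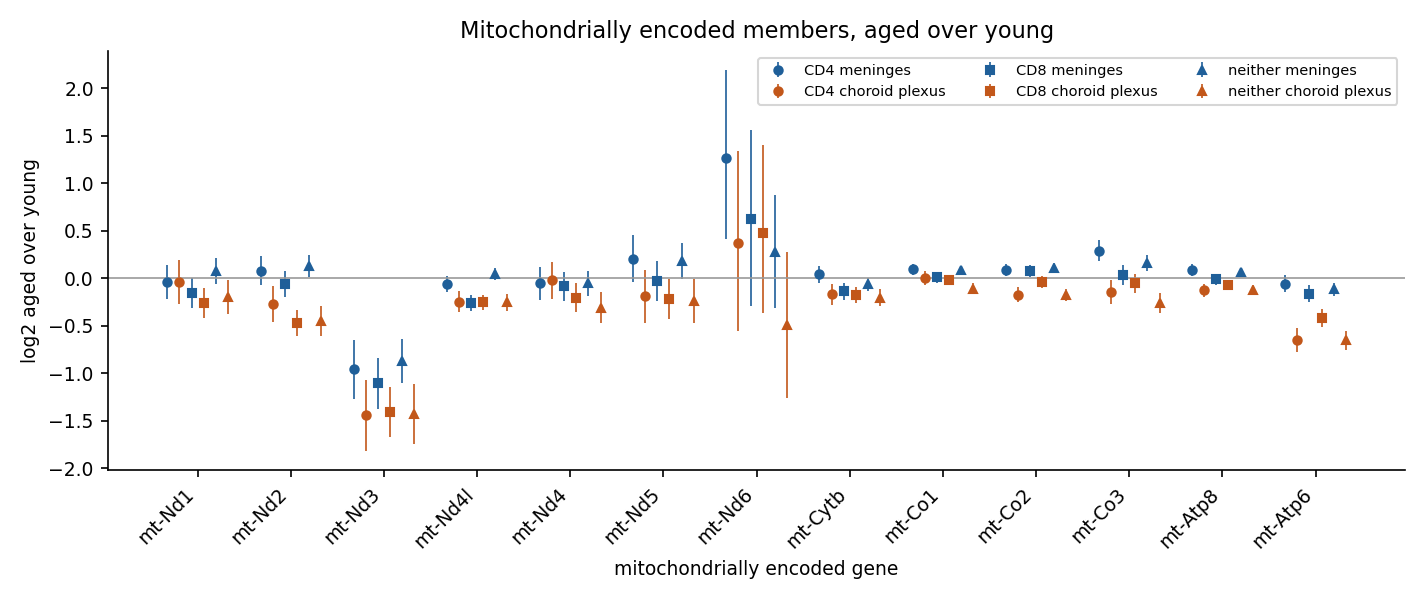
Log2 ratio, aged over young, of each of the 13 mitochondrially encoded genes in 6 contrasts, from summed CPM without a pseudocount, with 95% exact intervals of the counts. mt-Nd3 lies between -0.87 and -1.44 in all 6; in the choroid plexus mt-Atp6 and mt-Nd2 are the next lowest heavy-strand genes, and mt-Nd6 has the widest intervals.

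The genes next to mt-Nd3 did not show a difference of this size. As a share of all mt- UMIs it was 1.12% to 1.46% in the young and 0.49% to 0.70% in the aged groups. mt-Co3, the next protein-coding gene before it on the same strand, had log2 ratios of -0.26 to 0.29, and mt-Nd4l, the next after it, of -0.26 to 0.04.

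Outside the gates the values were mixed. Among T cells over the mt- limit, mt-Nd3 gave 1.41% and 1.09% of mt- UMIs in the young meninges and choroid plexus and 0.714% and 0.608% in the aged ones. Among T cells with UMIs of both Cd4 and Cd8 it gave 1.43% young and 0.605% aged in the meninges. In the choroid plexus these cells were at 0.637% (0.389 to 0.981, 16 cells) young and 0.486% (0.308 to 0.728, 33 cells) aged, and the intervals overlapped. Cells without a Cd3 UMI had 7 mt-Nd3 UMIs in the young meninges and at most 1 in each other library, too few to compare. Within the gates it was lower with age among cells with a Ccr7 UMI (log2 ratios of -0.59 to -1.51 after adding 10 CPM) and among cells without one (-0.68 to -1.40). Dividing cells had 247 and 257 CPM in the 2 young and 115 and 116 CPM in the 2 aged libraries. Since each age has 1 library per tissue, age and library cannot be told apart for mt-Nd3 either.

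mt-Atp6, the proton channel subunit of complex V, was at 2230, 2085 and 2293 CPM in CD4, CD8 and neither cells of the young choroid plexus and at 1421, 1556 and 1459 CPM in the aged choroid plexus. In the meninges mt-Atp6 was at 2156, 2350 and 2197 CPM when young and 2067, 2098 and 2022 CPM when aged. The log2 ratios were -0.65, -0.42 and -0.65 in the choroid plexus against -0.06, -0.16 and -0.12 in the meninges, and the difference between the tissues was not tested. mt-Atp8, which overlaps mt-Atp6 on the same strand (chrM:7766-7969 and chrM:7927-8607) so that reads in the shared stretch cannot be assigned with certainty, did not follow. mt-Atp6 over mt-Atp8 UMIs came to 0.48 to 0.49 in the young and 0.42 to 0.44 in the aged meninges, and to 0.33 to 0.36 in the young and 0.24 to 0.25 in the aged choroid plexus. The 4 libraries did not overlap in this ratio, but the gates of a library are not independent samples.

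Of the remaining mitochondrial genes, mt-Nd2, a proton-pumping subunit of complex I, was at log2 -0.27, -0.47 and -0.44 in the choroid plexus and at 0.08, -0.06 and 0.12 in the meninges. mt-Co1, the catalytic subunit of complex IV, ranged from -0.11 to 0.09, and mt-Cytb, the complex III subunit, from -0.21 to 0.04. The complex I subunits mt-Nd1, mt-Nd4 and mt-Nd5 ranged from -0.26 to 0.07, from -0.31 to -0.02 and from -0.23 to 0.20, and mt-Co2, which takes electrons from cytochrome c, from -0.18 to 0.11. mt-Nd6, the single member on the light strand, was at 17.98 to 43.5 CPM from 15 to 60 UMIs. After adding 10 CPM, its ratio was 0.93 in CD4 cells of the meninges (16 UMIs young, 44 aged) and between -0.38 and 0.43 elsewhere. At such low levels this addition makes the ratio smaller in size than the plain ratio in the figure. The UMI counts are not divided by gene length, so levels are compared between groups and not between genes.

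CD4 cells with a Foxp3 UMI were at 24929 CPM for the nuclear sum in the aged meninges (44 cells) and 24042 CPM in the aged choroid plexus (20 cells), against 22873 and 24881 CPM in CD4 cells without one. Cells of the neither gate with gamma-delta constant-region UMIs were at 23852 CPM in the aged meninges (24 cells) and 27601 CPM in the aged choroid plexus (15 cells).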

How the data were processed

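The deposited values were UMI counts for each gene in each cell. The authors obtained them with Cell Ranger (3.1.0 per the file headers; 5.1.0, with STAR and mm10, per the submitters' processing notes), and they are not normalized. All 31053 features were used, with no columns of other samples. The limits on genes and mt- UMIs are those of the study; its doublet tool was replaced by Scrublet in scanpy 1.11.5 (per library, 0.8% expected per 1000 cells, seed 0), which marked 0 cells of the aged meninges, so doublets can remain there. Counts were summed per gate and library. Intervals are exact (95%; Poisson for a level, binomial for a share or a ratio of sums) and cover counting error only. Gene ratios had 10 CPM added, were kept with at least 40 UMIs and were called past log2 0.5.

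Genes named were all mitochondrially encoded members, members called in the same direction in at least 4 of 6 age contrasts, the 5 highest and 5 lowest by mean age ratio, Sdha to Sdhd, isoform sets, the 3 highest and lowest by tissue and by gate, and up to 3 per further list. Members and lists were chosen with earlier results of these data known. Coordinates come from GENCODE vM21 (GRCm38), in which all 110 members were found, and the first listed promoter of each gene from RefSeq. The ratio and its interval were run on simulated counts that varied by counting error alone. That run cannot show how they behave under variation between cells or libraries. Python 3.11.15, scipy 1.17.1, pandas 2.3.3 and matplotlib 3.10.9 were used.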

Additional observations from a re-analysis of the deposited data

How the results depend on the processing

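No paired analysis was possible because each condition has 1 library and no replicate number. For the same reason no replicate was left out. The values below are those that moved beyond their counting interval, or counts that moved by over 1.5 times. Of 72 mt-Nd3 values, aged over young, 70 stayed within it and all 72 were below 0. The settings reuse cells of the same libraries, and some leave a group unchanged, so these values are not independent. The cause of each move was not tested. Members past the fold are counted in either direction, with the share of all genes past it under the same setting in brackets.

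Among cells without a Ccr7 UMI, the nuclear log2 ratio, aged over young, was 0.065 and 0.092 in CD4 cells of meninges and choroid plexus, 0.051 and -0.059 in CD8 cells (the latter turned in sign), and 0.060 and 0.14 in neither cells. Choroid plexus over meninges was 0.25 in young CD8 and 0.083 in young neither cells, and CD8 over CD4 was 0.19 in the young choroid plexus. The mt- share, aged minus young, was 0.30 and 0.26 points in CD4 and neither cells of the meninges and -0.014, -0.028 and -0.15 points in CD4, CD8 and neither cells of the choroid plexus. Members past the fold numbered 2 of 83 in neither cells of the meninges (18.2%).

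Scaled outside ribosomal protein genes, aged over young was 0.094, 0.085 and 0.10 in CD4, CD8 and neither cells of the meninges. In the choroid plexus it was 0.12, 0.047 and 0.15. Choroid plexus over meninges was 0.11 and 0.13 in young and aged CD4 cells and 0.16 and 0.21 in neither cells. CD8 over CD4 turned to 0.094 and 0.085 in the young and aged meninges and was 0.18 and 0.11 in the choroid plexus. The mt- difference was -0.10, -0.45 and -0.12 points in CD4, CD8 and neither cells of the meninges (CD4 and neither turned in sign), against -0.79, -0.67 and -0.91 points in the choroid plexus.

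With each cell thinned to 1000 UMIs, aged over young was 0.25 in CD4 and 0.29 in CD8 cells of the meninges and 0.21 in neither cells of the choroid plexus. Choroid plexus over meninges was 0.11 in young CD4, 0.28 in young CD8, 0.12 in aged CD8 and 0.14 in aged neither cells, and CD8 over CD4 in the aged meninges turned to 0.0066. The mt- difference was -0.19 in CD8 and 0.010 points in neither cells of the meninges, and mt-Nd3 in CD8 cells of the choroid plexus was at -1.75. Members past the fold numbered 15 of 72, 20 of 69 and 13 of 80 in CD4, CD8 and neither cells of the meninges (29.7, 32.3 and 27.7%) and 13 of 64 and 9 of 70 in CD4 and CD8 cells of the choroid plexus (31.9 and 30.2%), each a smaller share than of all genes.

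Without cells that had a cell-cycle UMI, aged over young was 0.27 in CD8 cells of the meninges. Choroid plexus over meninges was 0.016 in young CD4, 0.12 in aged CD8, 0.10 in young neither and 0.15 in aged neither cells. CD8 over CD4 was -0.10 in the young meninges and turned to 0.0012 in the aged meninges. Members past the fold numbered 19 of 81 in CD8 cells of the meninges (23.0%), a share of 23.5%, and 16 of 78 and 5 of 82 in CD4 and CD8 cells of the choroid plexus (28.9 and 21.4%).

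With no mt- limit, the mt- difference was 0.24 and 0.19 points in CD4 and neither cells of the meninges, -0.20 in CD4 cells of the choroid plexus, and turned to 0.14 in neither cells there, where mt-Nd3 was at -0.999. With a limit of 10%, it was 0.18, 0.16, -0.19 and -0.34 points in the same 4 groups. With at least 200 UMIs required, members past the fold numbered 4 of 64 in CD8 cells of the meninges (17.8%), and 3 of 47, 1 of 69 and 6 of 63 in CD4, CD8 and neither cells of the choroid plexus (20.9, 14.9 and 18.5%). In CD8 cells of the choroid plexus they numbered 1 of 82 when centred on the median of all genes (17.3%) and 1 of 82 with no doublets removed (18.9%). Past a log2 ratio of 1 they numbered 1 of 81 in CD8 cells of the meninges (4.155%) and 0 in the other contrasts (3.18 to 7.18%). Genes under 40 UMIs, Ndufaf1 among them, could not be compared at this depth.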
